A study of Mus musculus with 7 samples.

Results

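The genes described here are 31 members of the p53 pathway, chosen by symbol as p53 itself, its upstream regulator locus Cdkn2a and well-known p53 targets, among 24421 gene rows of a count table of 7 mouse tumours. All 31 symbols were present in the table. All 7 mice received anti-PD-1, an antibody against an inhibitory receptor of T cells. The control group of 3 mice received it with anti-KLH, an antibody against keyhole limpet haemocyanin, and the other 4 mice received it with anti-LAIR1, an antibody against a collagen-binding inhibitory receptor of leukocytes. Tumours were taken at week 4, with no starting event given, and each library came from its own named mouse. The labels give no strain, age or sex for single mice. The series text describes tumours grown under the skin of 129/Sv mice from the lung cancer line 344SQ, itself derived from mice with a p53R172H∆g/+ genotype, and also lung tumours started with adenovirus-cre in engineered p53fl/fl mice. The labels do not say which of the 2 these 7 tumours were. In both descriptions the cancer cells come from animals with altered p53 alleles, while counts per gene do not tell transcripts of cancer cells from those of host cells, or an altered allele from an intact one. Fewer cells of a type and less RNA per cell cannot be told apart in such bulk samples. Mouse names carry the prefix LOHM or KWM in the control group and WTSV in the anti-LAIR1 group, so whatever the prefixes mark cannot be told apart from treatment.

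p53 is a transcription factor that is kept scarce in resting cells because the ubiquitin ligase MDM2 marks it for destruction. DNA damage, oncogene signalling through the ARF protein and other stresses release it from MDM2, after which it binds paired copies of a short DNA element and switches on genes for growth arrest, DNA repair, cell death, metabolism and its own feedback. Loss or mutation of p53 is common in lung tumours, and a missense p53 protein of the R172H kind is impaired in binding these elements.

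The DNA element itself was looked for first, because it is what many of these genes have in common. RefSeq promoter windows (GRCm38.p6), each from 250 bases before to 50 bases after a transcription start, matched 23 of the 31 members by symbol. The p53 half-site consensus, 10 bases long and the same pattern on both strands, occurred in at least 1 window of 11 of these 23 genes (47.8%), against 2582 of 27025 genes with a window (9.55%). Over single windows it occurred in 12 of 35 (34.3%) for the members and in 8.36% of all windows. A pair of half-sites at most 13 bases apart occurred in 1 member, Cdkn1a, and in 20 of the 27025 genes. The matches of 7 members are printed here because these are the central p53 genes or the genes whose values are given by library. Each is printed 5′ to 3′ on the gene's strand with half-site matches in capitals.
Cdkn1a, chr17:29090886-29090957, plus strand: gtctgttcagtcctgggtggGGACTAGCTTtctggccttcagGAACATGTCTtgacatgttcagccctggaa
Mdm2, chr10:117710915-117710964, minus strand: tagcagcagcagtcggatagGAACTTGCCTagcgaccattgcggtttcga
Trp53, chr11:69580264-69580313, plus strand: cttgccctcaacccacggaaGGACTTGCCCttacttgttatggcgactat
Ccng1, chr11:40755442-40755491, minus strand: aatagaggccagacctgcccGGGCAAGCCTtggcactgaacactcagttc
Bax, chr7:45467070-45467119, minus strand: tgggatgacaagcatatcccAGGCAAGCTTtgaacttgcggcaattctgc
Gadd45a, chr6:67037418-67037467, minus strand: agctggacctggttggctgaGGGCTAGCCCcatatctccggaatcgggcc
Ei24, chr9:36797315-36797364, minus strand: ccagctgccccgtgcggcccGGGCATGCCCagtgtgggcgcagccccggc
The capitals mark letters that fit the pattern and are not evidence of binding in these tumours. A match had to fit all 10 bases, so half-sites with a mismatch were not counted. In Cdkn1a, the 10 bases directly after the last capitals miss the pattern at their first base only. Sites outside these windows were not searched.

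Every member was measured in every tumour. All 31 passed the filter on low counts, their counts per library ranged from 9 (Eda2r) to 2854, and library totals ranged from 9879762 to 26255727 reads. In GENCODE M21, 7 members share exon bases with another gene: Ddb2, Pltp and Gadd45a with partners in the table (given beside them), Bax with Gm45808 on the same strand (12.2% of its exon bases), and Cdkn1a (7.68%), Rrm2b (8.04%) and Ei24 (6.66%) with antisense or unclassified opposite-strand transcripts. Levels are given as CPM, the read count scaled to a common library total, here after TMM scaling. To compare levels between genes, CPM was divided by the length of each gene's exons in the GENCODE M21 annotation, which may differ from the annotation used for counting. Per kb of exon, Cdkn2a was highest at 93.4 CPM over the 7 libraries, followed by Perp at 35.1, Ccng1 at 30.5, Trp53inp1 at 16.2 and Mdm2 at 15.7. Trp53 was twelfth in this order at 10.1 CPM per kb and Cdkn1a next at 9.57. The lowest were Gdf15 at 1.55, Ddit4l at 1.14 and Eda2r at 0.214 CPM per kb. Neighbours in this order mostly overlapped between libraries, while the libraries of Cdkn2a lay above those of every other member.

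**Figure D1:**
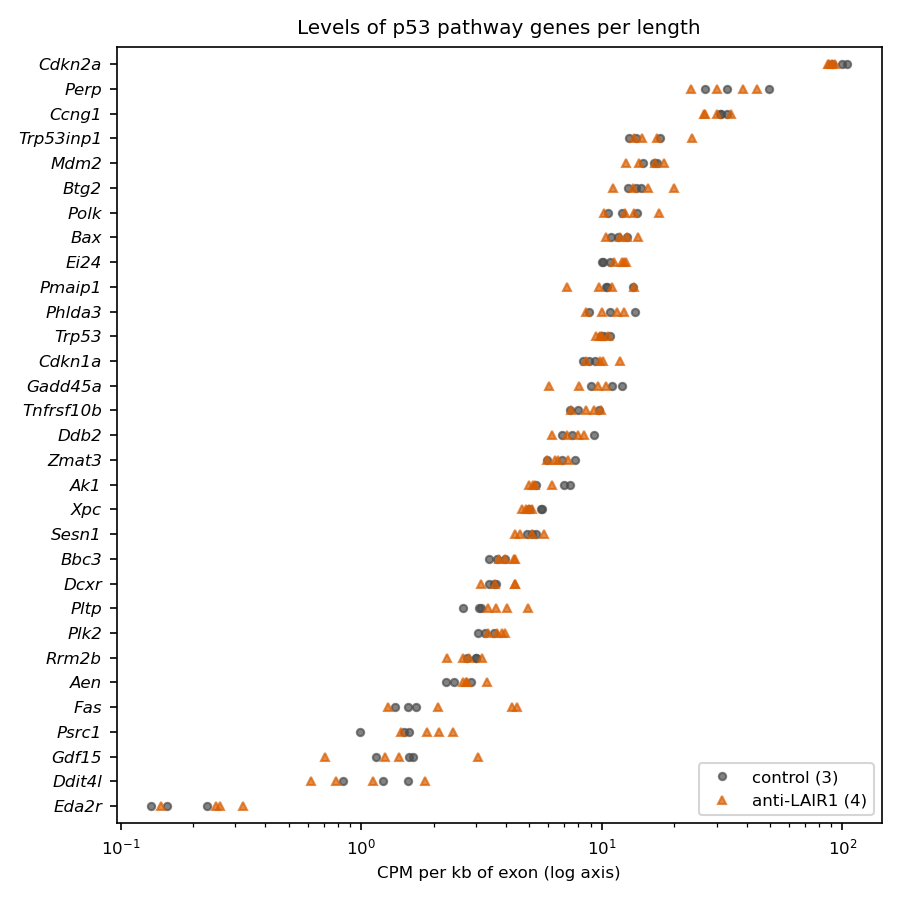
Level of each of the 31 genes in each library as CPM per kb of exon (log axis), ordered by the mean over 7 libraries; circles are the 3 control and triangles the 4 anti-LAIR1 libraries. The libraries of Cdkn2a lie above all others, and those of Eda2r below all others.

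The comparison asks whether these genes differed between anti-LAIR1 with anti-PD-1 and the control antibody with anti-PD-1. No member passed: edgeR's quasi-likelihood test with Benjamini-Hochberg adjustment over 13545 genes called 0 of the 31 at an adjusted p under 0.05, against 0 of all genes tested (0%), and the smallest adjusted p of a member was 0.933. At an unadjusted p under 0.05 there were 3 members, Ei24, Pltp and Fas, all with higher means under anti-LAIR1. That is 9.68% of the members, against 5.15% of all genes tested (3.51% with a higher and 1.63% with a lower mean under anti-LAIR1). DESeq2, whose calls covered 0.388% of the genes it adjusted, also called 0 members. Libraries of the 2 groups did not overlap for 2 members, Ei24 and Pltp (6.45%), against 5.57% of all genes, 3.06% higher and 2.51% lower. Log2 fold changes, anti-LAIR1 minus control, were above 0 for 16 and below 0 for 15 members, with a median of 0.06, against 49.1% above 0 and a median of 0.00 over all genes. The members' median ran from -0.017 without anti-LAIR1 replicate 1 to 0.12 without control replicate 3, so it had no stable direction.

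The size of the differences was small for most members. The log2 fold change was within 0.25 of 0 for 25 members and beyond 0.5 for 3 (Fas, Psrc1 and Eda2r). For 26 members the 95% interval of the log2 fold change lay between -1 and 1, that is within a factor of 2 in either direction. For 15 it lay between -0.5 and 0.5. The median absolute log2 fold change was 0.14 over the members and 0.10 over all genes tested.

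**Figure D2:**
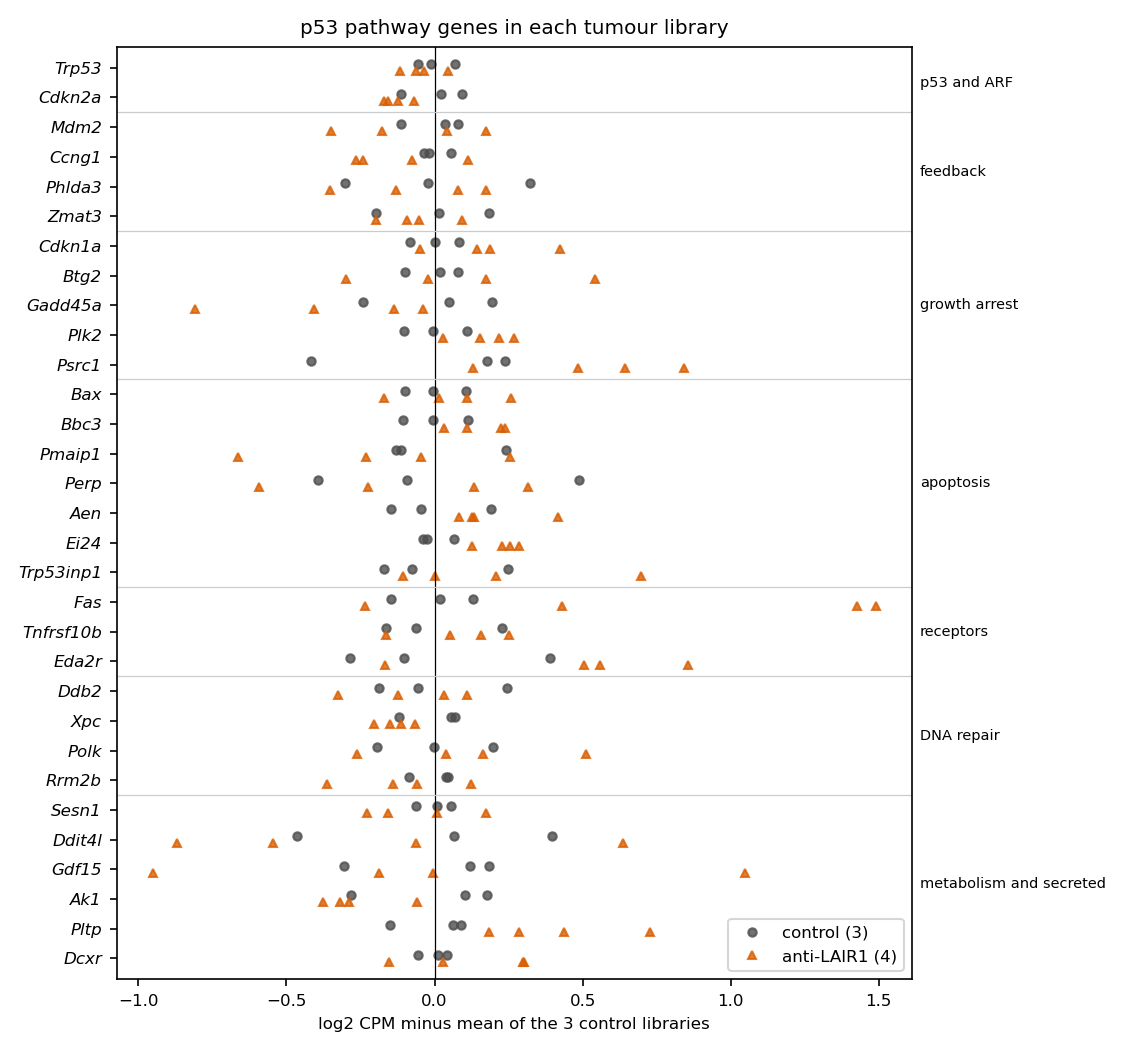
Log2 CPM of each gene in each library minus the mean of the 3 control libraries, with genes ordered by role; circles are control and triangles anti-LAIR1 libraries. Triangles and circles overlap for 29 of the 31 genes, and Fas has 2 anti-LAIR1 libraries far to the right of the others.

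p53 itself was among the steadiest members. Trp53 (chromosome 11, 69580348 to 69591873, GRCm38) had 43.6, 40.0 and 41.2 CPM in control replicates 1 to 3. It had 40.6, 38.3, 42.9 and 39.8 CPM in anti-LAIR1 replicates 1 to 4. The groups overlapped, and the highest library exceeded the lowest by a factor of 1.14, the smallest such factor among the members. The log2 fold change was -0.04 (SE 0.09, edgeR adjusted p = 1.00), with a 95% interval from -0.24 to 0.15. These are levels of RNA, and p53 is controlled largely at the level of protein.

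Cdkn2a (chromosome 4, 89274473 to 89294619) encodes, in alternative reading frames, the p53 activator ARF and the cyclin-dependent kinase inhibitor p16, which counts per gene cannot tell apart. Its control libraries had 106, 117 and 123 CPM and its anti-LAIR1 libraries 106, 110, 103 and 102 CPM. Only the first control library fell inside the range of the other group. The log2 fold change was -0.13 (SE 0.08, edgeR adjusted p = 0.991). Without control replicate 1 it was -0.19, with an unadjusted p of 0.0443 and an edgeR adjusted p of 0.965. That was the only 1 of 15 alternatives with an unadjusted p under 0.05 for Cdkn2a. Without control replicate 3 the log2 fold change was -0.088 (edgeR unadjusted p = 0.36).

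For the 4 genes listed here under feedback, the groups overlapped. Mdm2 (chromosome 10, 117688875 to 117710758), the ligase that limits p53, had 75.7, 86.6 and 83.9 CPM in controls. In anti-LAIR1 replicates 1 to 4 it had 84.3, 92.4, 72.5 and 64.3 CPM. The anti-LAIR1 libraries included both the highest and the lowest value, and the log2 fold change was -0.06 (SE 0.13, edgeR adjusted p = 1.00). Ccng1, the cyclin G1 gene whose product acts with a phosphatase on MDM2, averaged 112 ± 3.82 CPM in controls (SD, n = 3) and 104 ± 12.9 CPM with anti-LAIR1 (SD, n = 4). Phlda3, an inhibitor of AKT signalling, averaged 17.4 ± 3.81 and 16.6 ± 2.63 CPM. Zmat3, an RNA-binding zinc finger gene, averaged 78.2 ± 10.2 and 74.6 ± 6.27 CPM. All 4 had log2 fold changes just below 0, from -0.11 to -0.06, none of them passed the test, and leaving out single libraries turned the sign for Mdm2, Phlda3 and Zmat3.

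Among growth arrest genes, Cdkn1a, which encodes the cyclin-dependent kinase inhibitor p21 and is the best-known readout of p53 activity, lies on chromosome 17 (29090979 to 29100722). Its control libraries had 31.5, 33.3 and 29.7 CPM. Its anti-LAIR1 libraries had 34.8, 35.9, 42.3 and 30.4 CPM. Anti-LAIR1 replicates 1 to 3 lay above all controls and replicate 4 lay among them, and the fitted difference on the log2 scale was 0.18 (SE 0.12, edgeR adjusted p = 1.00), with a 95% interval from -0.09 to 0.46.

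Gadd45a (chromosome 6, 67035096 to 67037407), a stress-induced growth arrest gene that p53 and other factors control, had 21.5, 19.4 and 15.9 CPM in controls. With anti-LAIR1 it had 14.1, 17.1, 18.3 and 10.7 CPM. Its groups overlapped and the lowest value was in anti-LAIR1 replicate 4, and the fitted log2 difference was -0.34 (SE 0.19, edgeR adjusted p = 0.980). An antisense gene, E230016M11Rik, shares 19.1% of its exon bases and had 2.85 CPM in controls and 2.12 CPM with anti-LAIR1. How the counting treated strand is not given, so reads of such partners cannot be told apart.

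Psrc1 (chromosome 3, 108383804 to 108388231), whose product works on the mitotic spindle, had 3.32, 5.31 and 5.09 CPM in controls. With anti-LAIR1 it had 6.32, 4.92, 7.08 and 8.13 CPM. Of the anti-LAIR1 libraries, replicate 2 alone lay within the control range, and the log2 fold change was 0.55 (SE 0.25, unadjusted p = 0.0566, edgeR adjusted p = 0.970). Without that library it was 0.67, with an unadjusted p of 0.0296 and an edgeR adjusted p of 0.791. It was 0.34 without control replicate 1 (edgeR unadjusted p = 0.220) and 0.35 with limma-voom (unadjusted p = 0.165). With muscle level as a covariate it was 0.15 (edgeR unadjusted p = 0.667). Muscle level was high in anti-LAIR1 replicates 1, 3 and 4 only, so this fit can hardly tell it from treatment. Psrc1 had an unadjusted p under 0.05 in 1 of 15 alternatives, namely without anti-LAIR1 replicate 2. Beside it, 24 cell cycle genes that p21 and the DREAM repressor complex hold down summed to 725, 1109 and 1259 CPM in controls and to 865, 1019, 1495 and 1396 CPM with anti-LAIR1. Control replicate 1 was lowest in both measures, and the part of proliferation in the Psrc1 values was not tested. The sums overlapped between the groups. Of those 24 genes 22 had log2 fold changes above 0, against 49.1% of all genes tested, with a median of 0.20. Of the same 24, 0 had an edgeR unadjusted p under 0.05, against 5.15% of all genes tested. The smallest p among them belonged to Ccnb2, the cyclin B2 gene, at 21.04 ± 6.20 CPM in controls and 28.0 ± 6.47 CPM with anti-LAIR1 (log2 fold change 0.42, edgeR adjusted p = 0.980).

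The other growth arrest genes did not pass either. Btg2, an antiproliferative gene, averaged 37.7 ± 2.35 CPM in controls and 41.2 ± 10.3 CPM with anti-LAIR1. Its spread with anti-LAIR1, from 30.6 to 54.9 CPM, enclosed all 3 controls. Plk2, a polo-like kinase gene, averaged 14.8 ± 1.12 and 16.7 ± 1.19 CPM, with overlapping groups.

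**Figure D3:**
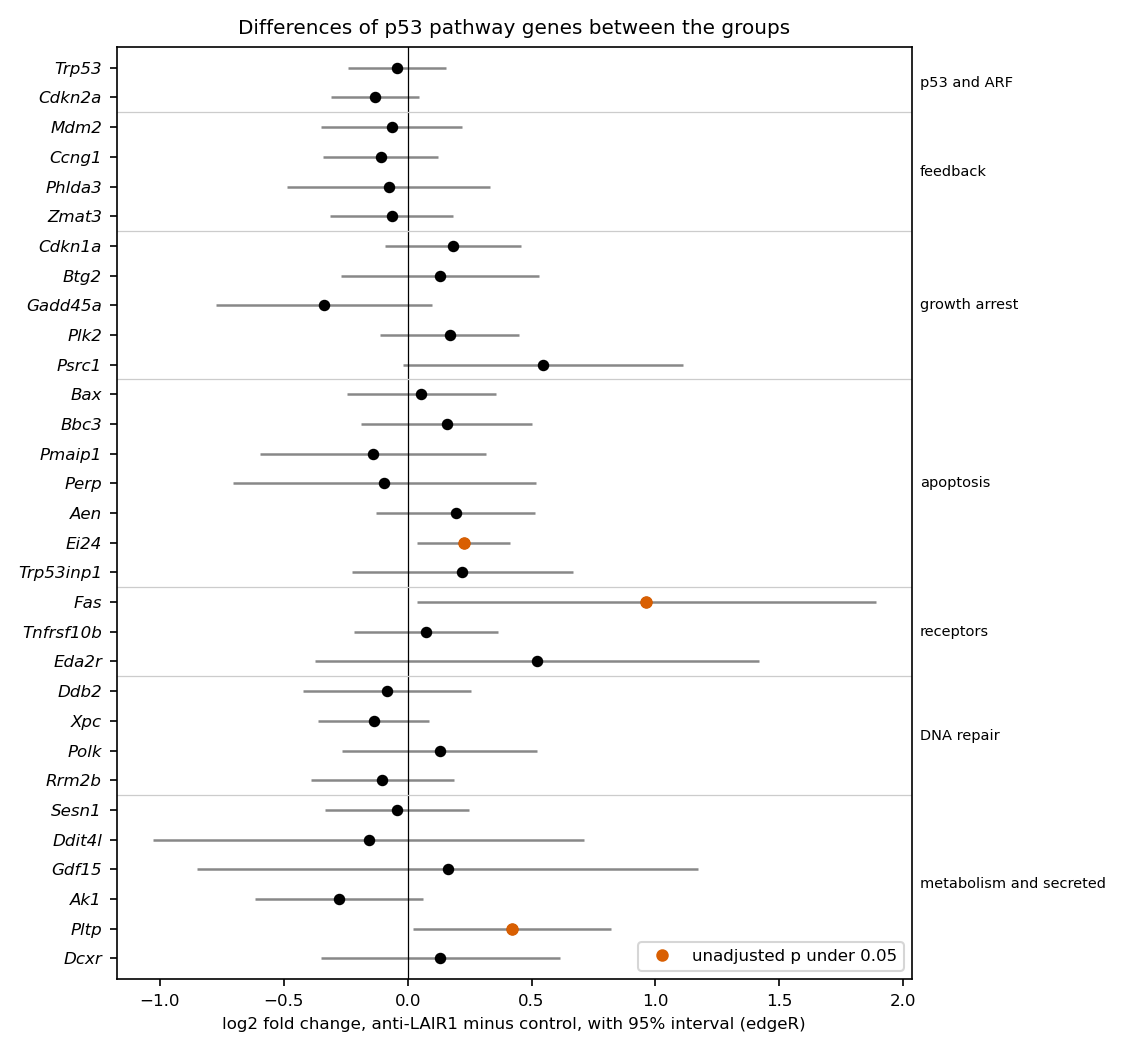
Log2 fold change of each gene, anti-LAIR1 minus control, with its 95% interval from edgeR, ordered by role; coloured points have an unadjusted p under 0.05. The intervals of Ei24, Pltp and Fas exclude 0 before adjustment, and that of Fas is wide, from 0.04 to 1.89.

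Of the 7 apoptosis genes, 5 had means that were higher and 2 means that were lower with anti-LAIR1. Ei24 (chromosome 9, 36779153 to 36797334), a p53-induced gene of the endoplasmic reticulum membrane that also acts in autophagy, had the smallest p of all members. Its control libraries had 49.4, 52.6 and 49.0 CPM, and its anti-LAIR1 libraries had 61.4, 55.0, 59.0 and 60.1 CPM. The groups did not overlap, but the gap between the nearest libraries was smaller than the range within either group. Its log2 fold change was 0.23 (SE 0.08, unadjusted p = 0.0234, edgeR adjusted p = 0.933), higher in 4 of 4 anti-LAIR1 libraries. It was 0.13, with an edgeR unadjusted p of 0.321, when the level of skeletal muscle genes was a covariate. Of the anti-LAIR1 libraries only replicate 2 had a muscle level near the controls, so this fit can hardly tell muscle from treatment.

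Among the other genes of cell death, the groups overlapped for Bax, Bbc3, Pmaip1 and Aen, and none of these passed the test. Bax, which permeabilises the mitochondrial outer membrane, averaged 18.6 ± 1.35 CPM in controls (SD, n = 3) and 19.4 ± 2.41 CPM with anti-LAIR1 (SD, n = 4). Bbc3, which encodes the BH3-only protein PUMA, averaged 7.82 ± 0.603 and 8.69 ± 0.601 CPM. Pmaip1, which encodes the BH3-only protein NOXA, averaged 31.3 ± 4.74 and 28.3 ± 7.32 CPM. Its lowest library was anti-LAIR1 replicate 4 at 19.6 CPM and its highest anti-LAIR1 replicate 1 at 37.2 CPM. Aen, an apoptosis-enhancing nuclease gene, averaged 14.6 ± 1.81 and 16.6 ± 1.86 CPM, with 1 anti-LAIR1 library at 19.4 CPM above the rest.

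Trp53inp1, a stress-induced partner of p53 that also acts in autophagy, had 113, 90.1 and 84.4 CPM in controls. Its anti-LAIR1 libraries had 154, 110, 95.3 and 88.2 CPM. Anti-LAIR1 replicate 1 stood highest and the other 6 libraries overlapped. The log2 fold change of 0.22 became 0.029 without that library.

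Perp, a tetraspan membrane gene needed for desmosomes in epithelia as well as for some p53-driven death, differed by a factor of 2.12 between libraries. It had 52.5, 64.6 and 96.8 CPM in controls and 59.0, 75.6, 85.8 and 45.7 CPM with anti-LAIR1. Its highest value was in control replicate 3. The same library stood apart in epidermal genes, which summed to 134 CPM there, against 26.1 to 37.1 CPM in the other controls and 14.7 to 26.1 CPM with anti-LAIR1, and Krt1 was at 0 in the other 6 libraries. Perp was at 85.8 CPM in anti-LAIR1 replicate 3, where the epidermal sum was at most 26.1 CPM. The mean log2 CPM of 10 simple epithelial genes was 7.074, 7.406 and 7.841 in controls. It was 7.21, 7.525, 7.889 and 7.189 with anti-LAIR1. Control replicate 3 and anti-LAIR1 replicate 3 were highest in this mean and in Perp. The sum of these genes, however, was higher in anti-LAIR1 replicate 1 (5848 CPM) than in replicate 3 (5574 CPM). The part of epidermal or epithelial RNA in the Perp values was not tested. Without control replicate 3 the Perp log2 fold change went from -0.09 to 0.18.

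Receptor genes held the member with the largest log2 fold change of the 31. Fas (chromosome 19, 34290647 to 34327775), a death receptor made by many cell types including activated lymphocytes, had 3.48, 3.21 and 2.85 CPM in controls. With anti-LAIR1 it had 8.75, 4.32, 2.68 and 9.15 CPM. Anti-LAIR1 replicates 1 and 4 were far above all other libraries, whereas replicate 3 was the lowest of all 7. Fas had a log2 fold change of 0.96 (SE 0.41, unadjusted p = 0.0433, edgeR adjusted p = 0.966), higher than every control in 3 of 4 anti-LAIR1 libraries. It ranged from 0.72 without anti-LAIR1 replicate 4 to 1.21 without anti-LAIR1 replicate 3, where the unadjusted p was 0.00424 and the edgeR adjusted p 0.565. It was 0.58 with limma-voom (unadjusted p = 0.169) and 0.39 with muscle level as a covariate (edgeR unadjusted p = 0.489). Muscle level was high in 3 of 4 anti-LAIR1 libraries and in no control, so the latter fit can hardly tell it from treatment.

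The same 2 tumours had the most T cell RNA. Summed over the 9 T cell markers in the table, levels were 16.3, 4.56 and 6.10 CPM in controls and 39.7, 17.3, 8.80 and 41.8 CPM with anti-LAIR1. All 7 T cell markers that could be tested had log2 fold changes above 0, and none of the 9 was at 0 in any library. A list of 14 interferon response genes summed to 795, 405 and 357 CPM in controls and to 1596, 823, 671 and 1120 CPM with anti-LAIR1. Of these 14, 12 had an edgeR unadjusted p under 0.05, against 5.15% of all genes tested. Groups did not overlap for 9 of them, against 5.57% of all genes, and 0 passed the adjusted test. Among anti-LAIR1 libraries, Fas was thus highest in the 2 tumours that were highest in T cell and in interferon genes, and lowest in the tumour lowest in both. The part of either in the Fas values was not tested.

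The other 2 receptors did not pass. Tnfrsf10b, the mouse TRAIL death receptor gene, averaged 45.6 ± 6.60 CPM in controls and 47.9 ± 5.76 CPM with anti-LAIR1. Eda2r, an X-linked receptor of ectodysplasin A2, was the least abundant member at 1.02 ± 0.291 and 1.44 ± 0.429 CPM. At this depth 3 counts were worth from 0.119 to 0.305 CPM, and the 95% interval of its log2 fold change of 0.52 ran from -0.37 to 1.42.

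**Figure D4:**
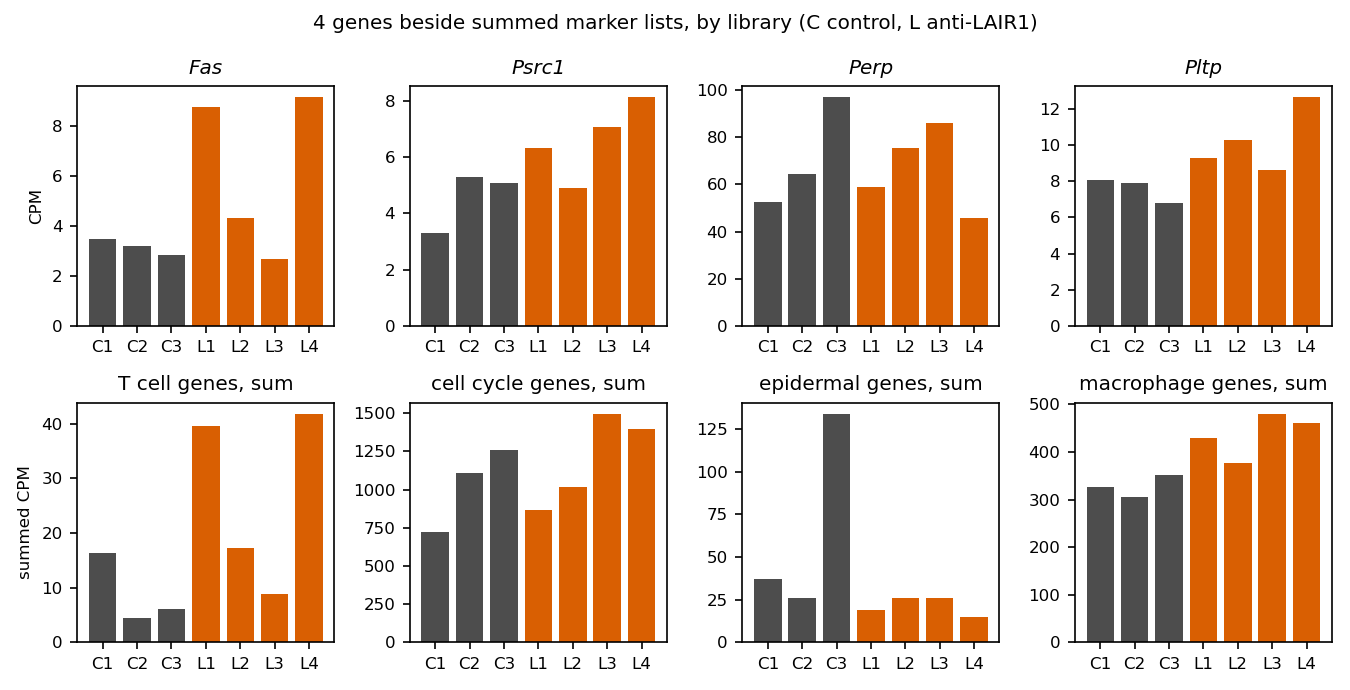
CPM of Fas, Psrc1, Perp and Pltp in each library (top) and the summed CPM of T cell, cell cycle, epidermal and macrophage genes (bottom); C1 to C3 are control and L1 to L4 anti-LAIR1 replicates. Fas and the T cell sum are both highest in L1 and L4, and Perp and the epidermal sum are both highest in C3.

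The groups overlapped for the 4 DNA repair genes, and none of them passed the test. Xpc, a damage sensor of nucleotide excision repair, averaged 29.7 ± 2.14 CPM in controls and 27.0 ± 1.10 CPM with anti-LAIR1. Ddb2, the damaged-DNA binding partner in the same pathway, averaged 21.5 ± 3.41 and 20.4 ± 2.67 CPM. The opposite-strand gene Acp2 covers 23.8% of the exon bases of Ddb2 and had a mean of 77.3 CPM in controls and 76.8 CPM with anti-LAIR1. Rrm2b, the p53-controlled small subunit of ribonucleotide reductase, averaged 26.7 ± 1.35 and 24.9 ± 3.45 CPM. Polk, a translesion DNA polymerase gene, averaged 68.1 ± 9.22 and 74.6 ± 16.7 CPM, with its highest value, 96.4 CPM, in anti-LAIR1 replicate 1 as for Trp53inp1.

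In the remaining group of metabolic and secreted proteins, Pltp (chromosome 2, 164839518 to 164857708), which encodes the phospholipid transfer protein of plasma lipoproteins and is also made by macrophages, was the other member with separate groups. It had 8.07, 7.92 and 6.81 CPM in controls and 9.28, 10.3, 8.63 and 12.6 CPM with anti-LAIR1. Its log2 fold change was 0.42 (SE 0.18, unadjusted p = 0.0412, edgeR adjusted p = 0.954), higher in 4 of 4 anti-LAIR1 libraries. It was 0.30 without anti-LAIR1 replicate 4, with an unadjusted p of 0.112. Summed over 10 macrophage markers, levels were 326, 305 and 351 CPM in controls and 430, 378, 480 and 460 CPM with anti-LAIR1. These sums did not overlap, but the groups overlapped for 8 of the 10 markers taken singly, and only Csf1r and Adgre1 were separate. Of the 10, 9 had log2 fold changes above 0 and 1 (Itgam, -0.21) below, 2 had an unadjusted p under 0.05 and none passed the adjusted edgeR test. Over all genes tested, 5.15% had an unadjusted p under 0.05 and 5.57% had groups that did not overlap. Within each group, the library with the highest macrophage sum, replicate 3 in both, had the lowest Pltp. All 10 macrophage markers were counted in every library, and their part in the Pltp values was not tested. The opposite-strand gene Ctsa covers 19.3% of the exon bases of Pltp and had 143 CPM in controls and 144 CPM with anti-LAIR1.

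Ak1 (chromosome 2, 32621758 to 32635058), an adenylate kinase gene that is abundant in muscle, had 19.1, 18.1 and 13.8 CPM in controls. With anti-LAIR1 it had 13.7, 16.2, 13.5 and 12.9 CPM. Control replicates 1 and 2 lay above all anti-LAIR1 libraries and control replicate 3 among them. The log2 fold change was -0.28 (SE 0.15, edgeR adjusted p = 0.980). Without control replicate 3 it was -0.40 (unadjusted p = 0.0237, edgeR adjusted p = 0.907). That was the only 1 of 15 alternatives with an unadjusted p under 0.05 for Ak1. Without control replicate 1 the log2 fold change was -0.19 (edgeR unadjusted p = 0.294). Skeletal muscle genes summed to 14.0 to 16.4 CPM in controls and to 129, 17.1, 93.1 and 125 CPM with anti-LAIR1, and 7 of the 12 were at 0 in at least 1 library. Anti-LAIR1 replicates 1, 3 and 4, which were high in muscle genes, had less Ak1 than replicate 2. With muscle level as a covariate the Ak1 log2 fold change was -0.10 (edgeR unadjusted p = 0.649). Of the anti-LAIR1 libraries only replicate 2 had a muscle level near the controls, so this fit can hardly tell muscle from treatment. The part of muscle RNA in the Ak1 values was not tested.

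For the last 4 genes the groups overlapped and none passed the test. Gdf15, a secreted stress cytokine of the TGF beta family, had the widest spread of all members, a factor of 4.30 between libraries. It averaged 2.701 ± 0.494 CPM in controls and 2.99 ± 1.87 CPM with anti-LAIR1, where both its lowest and its highest library were found, and the 95% interval of its log2 fold change ran from -0.85 to 1.17. Ddit4l, an inhibitor of mTOR signalling, averaged 3.53 ± 1.06 and 3.19 ± 1.58 CPM, with an interval from -1.03 to 0.71. Sesn1, a sestrin that also restrains mTOR, averaged 20.3 ± 0.851 and 19.7 ± 2.51 CPM, and Dcxr, a sugar reductase gene, 4.04 ± 0.144 and 4.44 ± 0.688 CPM.

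Across the members, no library was uniformly high or low. The mean log2 CPM over the 31 genes was 4.36, 4.37 and 4.35 in controls and 4.45, 4.43, 4.39 and 4.39 with anti-LAIR1. The anti-LAIR1 means all lay above the control means, but the nearest were close, at 4.385 and 4.368. This separation was not tested, and 16 members had log2 fold changes above 0 and 15 below. Anti-LAIR1 replicate 4 stood at an end most often, being the highest of 7 for 8 members (25.8%) and the lowest for 10 (32.3%). Over all genes tested the same library was highest for 19.1% and lowest for 21.6%. Anti-LAIR1 replicate 1 was also the highest for 8 members (25.8%), against 15.9% of all genes tested. It was the lowest for 3 (9.7%), against 15.8% of all genes. The median factor between the highest and the lowest library was 1.48 for the members and 1.47 for all genes tested that were at 0 in no library.

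**Figure D5:**
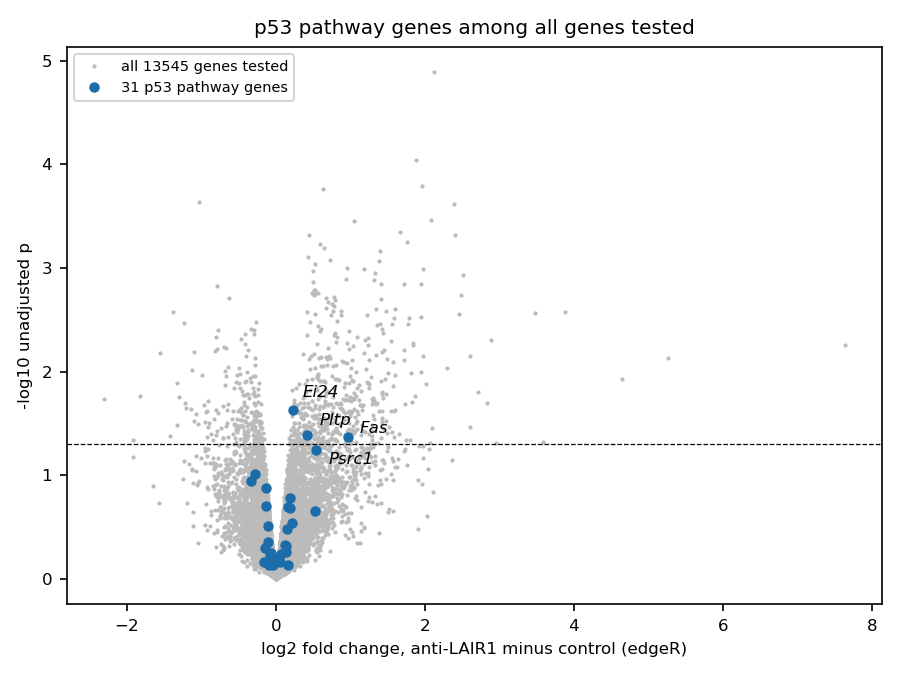
Log2 fold change (anti-LAIR1 minus control) against the unadjusted edgeR p (as -log10, on the vertical axis) for all 13545 genes tested (grey) and the 31 p53 pathway genes (blue); the dashed line marks the 0.05 threshold. The members lie within the mass of other genes, with 3 of them above the line.

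Other genes of the pathway gave the same count of calls. From a list of 50 regulators, kinases and further targets, 48 were in the table and 46 could be tested, 22 with log2 fold changes above 0 and 24 below, with a median of 0.00. edgeR called 0 of the 46, DESeq2 also 0, and 1 had an unadjusted p under 0.05, against 5.15% of all genes tested. This was Gadd45b, a stress gene related to Gadd45a, at 18.8 ± 2.23 CPM in controls and 14.4 ± 1.09 CPM with anti-LAIR1, with groups that did not overlap (log2 fold change -0.38, SE 0.13, edgeR adjusted p = 0.933). Groups did not overlap for 2 of the 46, against 5.57% of all genes. Besides Gadd45b this was Cd82, a tetraspanin gene, which had 46.0, 45.1 and 47.2 CPM in controls and 52.8, 49.5, 51.4 and 50.9 CPM with anti-LAIR1 (log2 fold change 0.15, edgeR adjusted p = 0.980). The next smallest p with a lower mean belonged to Trp63, the p53 relative of epidermal stem cells, which was at 6.00 CPM in control replicate 3, the library high in epidermal genes, and at 0.263 to 0.972 CPM in the other 6. Sesn2, a stress-induced sestrin, averaged 8.97 ± 0.989 and 12.5 ± 4.43 CPM, with 1 anti-LAIR1 library at 19.1 CPM (edgeR adjusted p = 0.980). Cdk6, a cell cycle kinase gene, averaged 110 ± 3.84 and 131 ± 22.7 CPM (edgeR adjusted p = 0.980).

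The tumours held markers of epithelium and of its surroundings. Simple epithelial genes summed to 4743 to 5883 CPM in controls and 4847 to 5848 CPM with anti-LAIR1, and the lung lineage factor Nkx2-1 was present in every library at 129 to 210 CPM, while 4 of 8 lung markers, including Sftpc, were too low to test. The 8 lung markers summed to 1380 to 1676 CPM in controls and to 1741, 1233 and 1366 CPM in anti-LAIR1 replicates 1 to 3, and replicate 4 stood apart at 3319 CPM. Leukocyte genes summed to 248 to 290 CPM in controls and 343 to 428 CPM with anti-LAIR1, all 12 with log2 fold changes above 0 and none passing the adjusted test. Of these 12, 6 had an edgeR unadjusted p under 0.05, against 5.15% of all genes tested. Groups did not overlap for 5 of them, against 5.57% of all genes. Fibroblast sums overlapped, at 3105 to 3371 and 2223 to 3835 CPM, as did adipocyte sums, at 73.0 to 95.7 and 79.0 to 183 CPM. Endothelial sums were 105 to 135 CPM in controls and 141 to 165 CPM with anti-LAIR1, without overlap, and none of the 8 genes passed the adjusted test. Of these 8, 7 had log2 fold changes above 0 and 1 below, and 3 had an edgeR unadjusted p under 0.05, against 5.15% of all genes. Taken singly, 2 were separate with higher and 1 with lower values under anti-LAIR1, against 5.57% of all genes.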

How the data were processed

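The values deposited by the authors are raw counts of reads in 24421 genes named by symbol, and 0 rows name no gene. The submitters' processing notes list the mm10 build and, as tools, edgeR 3.40.1, featureCounts 2.0.1, STAR 2.7.6 and Trim Galore. Not given in the sources used here are the annotation of genes, whether strand was used and what was done with multiply matching reads. Per the labels' protocols, polyadenylated RNA was sequenced as single reads with a directional kit. Columns were matched to samples by mouse name. Separate mice are named, and p-values measure the spread between these libraries. Other alleles of the mouse models are not reported here.

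The whole table was fitted with edgeR 4.0.16 (R 4.3.3): filterByExpr (minimum count 10, 13545 genes kept), TMM scaling, robust quasi-likelihood test without covariates, Benjamini-Hochberg adjustment, threshold 0.05. DESeq2 1.42.0 (13924 genes adjusted) and limma 3.58.1 were alternatives, besides other scalings, filters, a muscle covariate and leaving out each library. Log2 CPM used a prior count of 2, and 95% intervals came from the SE of the fit. Floors of 3 counts cover counting error only. The code was tested on simulated counts. The members and gene lists were chosen with earlier results of these data known. Library values are given for the 8 members with the smallest p and for Trp53, Cdkn2a, Cdkn1a and Mdm2. From the other pathway list the 2 genes with the smallest p per direction are named, and 1 from the cell cycle list, by mean and SD (Trp63 by library and range). Cd82, Csf1r, Adgre1, Itgam, the library values of Trp53inp1 and Perp, the simple epithelial levels beside Perp and single libraries of other genes were added after values were seen. Coordinates are RefSeq's for GRCm38, counted from 1. Figures used matplotlib 3.10.9.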

Additional observations from a re-analysis of the deposited data

Results flagged for a closer look

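Among the 4 anti-LAIR1 libraries, Aen had 1 that stood apart from the others: 19.4 CPM in replicate 4, against 15.4 to 15.9 CPM in the other 3. The gap to the nearest library was 0.86 of the group's range, above Dixon's critical value for 4 values. It was 1 of 49 genes and list sums looked at, and chance flags about 1 in 20 such groups. Groups of 3 were not looked at in this way.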

How the results depend on the processing

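No member passed an adjusted p of 0.05 in any of the 15 alternatives, the smallest being 0.565 (Fas without anti-LAIR1 replicate 3), and 0 of the other pathway genes passed. Low counts limit the precision of the least abundant member, Eda2r, with from 9 to 29 counts per library. No paired analysis was possible because the labels give no numbers shared between the groups. Members at an unadjusted p under 0.05 numbered 3 in the main test, 2 with limma-voom and 0 with muscle level as a covariate. The mean log2 CPM of muscle genes was -0.97, -0.83 and -0.95 in controls and 1.36, -1.07, 1.095 and 1.345 with anti-LAIR1. Only anti-LAIR1 replicate 2 was near the controls, so that fit can hardly tell muscle level from treatment. Without single libraries the members numbered from 1 to 3. There was 1 without any 1 of the control replicates and without anti-LAIR1 replicates 1 and 4. That member was Cdkn2a without control replicate 1, Ei24 without control replicate 2 and Ak1 without control replicate 3. The median log2 fold change of the members, 0.06, was 0.089 with library totals and ran from -0.017 (without anti-LAIR1 replicate 1) to 0.12 (without control replicate 3). It was also just below 0 without control replicate 2 (-0.0033). Genes called over the whole table numbered 54 with DESeq2 and from 0 to 3 without single libraries, 3 without anti-LAIR1 replicate 2. The sign of the fold change held in all alternatives for 19 members and changed in at least 1 for 12. With limma-voom the log2 fold change was -0.16 for Gdf15, 0.033 for Phlda3 and 0.028 for Perp. With the muscle covariate it was 0.14 for Mdm2, -0.026 for Gdf15, 0.14 for Phlda3, 0.13 for Perp, -0.28 for Btg2, 0.062 for Ddb2 and 0.48 for Ddit4l. Without single libraries, values ran from -0.15 to 0.016 for Mdm2, -0.021 to 0.13 for Bax, -0.35 to 0.42 for Gdf15, -0.12 to 0.016 for Sesn1 and -0.21 to 0.10 for Phlda3. They ran from -0.16 to 0.026 for Zmat3, -0.0033 to 0.19 for Tnfrsf10b, -0.28 to 0.18 for Perp, -0.040 to 0.25 for Btg2, -0.17 to 0.049 for Ddb2, -0.017 to 0.24 for Polk and -0.53 to 0.074 for Ddit4l. None of these fold changes had passed the test, and the cause of each change was not tested.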
